A study of Mus musculus with 3 samples.

Results

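The genes described here are 10 vascular G protein-coupled receptors, receptor partners and ligands: S1pr1, S1pr2, Ramp2, Calcrl, Adm, Apln, Aplnr, Gpr116, Eltd1 and Ednrb. They were taken by gene name from the non-control probes of the array, which gave 11 probes, 2 for Ednrb and 1 for each other gene, among 55681 probes for 36095 named genes or transcripts. Expression was measured in mouse yolk sac cells sorted as positive for VE-cadherin, the endothelial adhesion protein, and for CD45, a surface protein of blood cells. The control group was 1 sample from embryos labelled control, at E10.5 (embryonic day). The Tie-2-Etv2 group, called transgenic below, was 2 samples from embryos in which a transgene for Etv2, an ETS-family transcription factor of early blood and vessel development, was turned on by a Cre transgene under Tie-2. Tie-2 is active in endothelium and in part of the blood lineage, so the transgene is not limited to a single cell type. All 3 samples were of a mixed strain background (B6/CBA and others), the age of the Tie-2-Etv2 embryos is not stated in the labels, and nothing says whether the replicates came from separate litters. The spread behind every p-value is thus that of these samples alone and could be technical.

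G protein-coupled receptors cross the cell membrane and pass a signal from an outside ligand to G proteins within. In vessels, adrenomedullin (Adm) acts on the receptor Calcrl, which reaches the surface as an adrenomedullin receptor when paired with Ramp2, and loss of any of the 3 genes damages vessels in the mouse embryo. Sphingosine-1-phosphate, a lipid carried in blood, acts on S1pr1, which stabilises endothelial junctions, and on S1pr2, which couples to other G proteins and can oppose it. Apelin (Apln) guides vessel growth through Aplnr, while Gpr116 (now Adgrf5) and Eltd1 (now Adgrl4) are adhesion-class receptors of endothelium and Ednrb is the type B endothelin receptor.

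Signals are given as the background-subtracted spot signal in percent of the 75th percentile of detected probes on the same array, called scaled signal. Detected means well above background in the scanner software's own flag. That percentile was 2073 intensity units on the control array, 1199 for transgenic replicate 1 and 2092 for replicate 2, so replicate 1 was the dimmer array. Etv2 itself read 72.6, 901 and 682 intensity units on the control, replicate 1 and replicate 2 arrays, a log2 difference of 4.42 on replicate 1 and 3.22 on replicate 2. Cdh5, which encodes VE-cadherin, was at 4.46 and 2.60, and Ptprc, which encodes CD45, at -0.42 and -0.50. With 3 arrays, 1 of them the control, their number limits the precision of every value.

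Of the 10 genes, 7 were detected on all 3 arrays (S1pr1, S1pr2, Ramp2, Calcrl, Gpr116, Eltd1 and Ednrb), Adm on the control array alone, Aplnr on replicate 2 alone and Apln on none. Ramp2, Eltd1, S1pr1, Gpr116 and Calcrl, in that order of their mean difference, read higher than the control on both transgenic arrays, while S1pr2, Ednrb and Adm read lower on both. The 8 genes with a tested probe thus each had both transgenic arrays on the same side of the control, as did 73.4% of all 19583 genes tested. Ramp2 and Eltd1 were at least 2-fold higher in each transgenic array, where 3.92% of all genes were, and Ednrb and, by its measured values, Adm were at least 2-fold lower, where 6.64% were. Adm entered the test only through the control array on which it was detected, so it had to read lower, and nothing is read from its place in these counts.

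In limma's test with Benjamini-Hochberg adjustment, none of the 8 genes passed an adjusted p of 0.05, and 0% of all genes did, while 2110 of these had an unadjusted p under 0.05. The smallest adjusted p was 0.199 over all genes. At an unadjusted limma p under 0.05 stood Ednrb and Eltd1 among the 7 genes detected on all 3 arrays. Over all genes tested the share was 10.8%, which also covers genes detected in 1 group only. Adm, whose side was set by the filter, also had such a p and is not counted. The test has 1 residual degree of freedom, given by the transgenic replicates, and the lone control is assumed to vary as they do. An exact permutation test of 1 array against 2 could not go below p = 0.333.

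**Figure D1:**
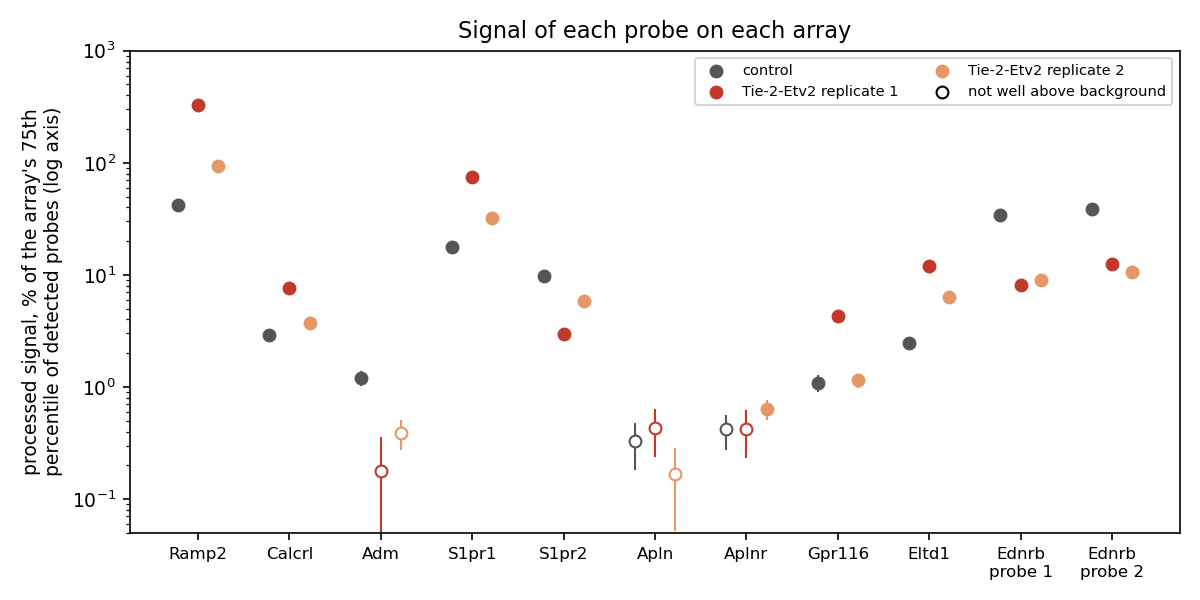
Scaled signal of the 11 probes on a log axis, in percent of the array's 75th percentile of detected probes; each point is 1 array, bars are the error that the scanner software estimates for the spot, and open points are not well above background. Ramp2, S1pr1 and Eltd1 sit above their control point on both transgenic arrays, both Ednrb probes sit below it, and all Apln points are open.

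Sequences are shown to locate what was measured and what lies before the genes. The array's 60-base probes have positions on build mm9 in the files. The Ramp2 probe is at chr11:101109501-101109560 (base 808 of its transcript), the S1pr1 probe at chr3:115414020-115414079 (base 2300), and the Ednrb probes at chr14:104220870-104220929 (base 1096, the probe used) and chr14:104214484-104214543 (base 3288). The 2 Ednrb probes start 6386 bases apart in the genome, so their like values come from separate stretches of the transcript. The other probes are at chr3:151207470-151207529 (Eltd1), chr2:84173073-84173132 (Calcrl), chr9:20770729-20770788 (S1pr2), chr17:43596447-43596506 (Gpr116), chr7:117773088-117773147 (Adm), chr2:84979638-84979697 (Aplnr) and chrX:45378593-45378652 (Apln). Exon and UTR annotation of that build was not used here. The first 30 bases of the Ramp2, S1pr1 and Ednrb probes, which carried the brighter signals of the set, are given 5′ to 3′.
Ramp2: gcagcaaaggggactcacgacacaatgttt
S1pr1: aagatgaaaatgtgttccttttttgtcaca
Ednrb, probe used: tataccctgatgacctgcgaaatgctcagg
Ednrb, other probe: aaggacgccccagatcttcaattttaagtt

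Because Etv2 belongs to the ETS family, whose members bind DNA around a GGAA core, the 250 bases before each start site were searched for GGAA on both strands, and for the longer forms CCGGAA and CAGGAA, which contain it. RefSeq promoter sequences of build GRCm38.p6 were matched for 7 of the 10 genes, with 2 start sites for Gpr116; S1pr1, Ramp2 and Aplnr were not matched. The core was present in all 8 windows, 2 to 7 times, as it was in 93.4% of 32851 promoter windows of the same length, with a mean of 2.91. CCGGAA was in 12.0% of all windows and here in those of Eltd1, 20 to 25 bases before the start, and S1pr2, 7 to 12 bases before it. CAGGAA was in 25.7% of all windows and here in those of Calcrl (2 matches), Apln (1 match) and both of Gpr116 (2 matches and 1). Ednrb and Adm had the core only, 2 times each. A match is a description of the letters and does not show that a factor binds there. The windows, 5′ to 3′ on the gene's strand with GGAA or its reverse complement in capitals, are those of a gene higher on both arrays (Eltd1, chr3:151437632-151437881), of the receptor whose partner led the higher genes (Calcrl, chr2:84425267-84425516), and of the 2 receptors that were lower (S1pr2, chr9:20976794-20977043, and Ednrb, chr14:103843702-103843951).
Eltd1: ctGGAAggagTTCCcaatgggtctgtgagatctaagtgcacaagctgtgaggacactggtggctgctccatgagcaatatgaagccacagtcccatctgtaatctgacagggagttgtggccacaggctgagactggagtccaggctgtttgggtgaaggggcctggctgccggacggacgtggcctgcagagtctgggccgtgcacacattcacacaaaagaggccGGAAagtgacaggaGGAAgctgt
Calcrl: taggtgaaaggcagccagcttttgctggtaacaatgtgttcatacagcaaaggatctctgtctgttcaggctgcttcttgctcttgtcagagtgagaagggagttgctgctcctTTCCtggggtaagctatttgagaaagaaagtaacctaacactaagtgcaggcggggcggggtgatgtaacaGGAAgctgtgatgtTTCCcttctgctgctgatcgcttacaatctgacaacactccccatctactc
S1pr2: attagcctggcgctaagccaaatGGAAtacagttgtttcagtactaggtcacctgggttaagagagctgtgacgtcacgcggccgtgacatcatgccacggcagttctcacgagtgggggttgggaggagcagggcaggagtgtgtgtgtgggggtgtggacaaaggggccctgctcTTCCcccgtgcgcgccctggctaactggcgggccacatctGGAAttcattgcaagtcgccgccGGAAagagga
Ednrb: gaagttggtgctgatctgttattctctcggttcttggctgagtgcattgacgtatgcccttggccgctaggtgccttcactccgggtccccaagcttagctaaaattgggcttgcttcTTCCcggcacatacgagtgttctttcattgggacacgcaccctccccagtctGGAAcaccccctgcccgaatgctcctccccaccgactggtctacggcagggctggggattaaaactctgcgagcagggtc
Both the higher Eltd1 and the lower S1pr2 hold CCGGAA near the start, and Ednrb, also lower, does not.

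Ramp2, the membrane protein that makes Calcrl an adrenomedullin receptor, stood furthest above the control of the 10 genes. Its scaled signal was 42.4% on the control array, 329.6% on replicate 1 and 93.4% on replicate 2. Both transgenic arrays lay above the control, and replicate 1 lay well above replicate 2. It was 4.14-fold higher in their mean, 7.78-fold on replicate 1 and 2.20-fold on replicate 2. The log2 difference was 2.05 ± 0.86 (SE), with a limma adjusted p of 0.545, and it was larger than that of 98.4% of all genes tested. Ramp2 passed under 1 alternative, normexp background correction, at a log2 difference of 1.98 and an adjusted p of 0.00103; over all alternatives its adjusted p ran from 0.00103 to 0.637.

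Calcrl, the receptor that Ramp2 partners, differed less. Its scaled signal was 2.90% on the control array, 7.59% on replicate 1 and 3.70% on replicate 2. Both transgenic arrays lay above the control, but replicate 2 by only 1.27-fold, against 2.62-fold on replicate 1. The mean log2 difference was 0.87 ± 0.55 (SE), with a limma adjusted p of 0.743. The replicates lay 1.04 apart on the log2 scale, more than the mean difference from the control.

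Adm, the ligand of this pair, was detected on the control array only. Its spot read 24.8 ± 3.8 intensity units there (the error is the one the scanner software estimates for the spot), 2.15 ± 2.17 on replicate 1, where the value is a surrogate for a very dim spot, and 8.17 ± 2.43 on replicate 2. Both transgenic values were not well above background, so only a bound can be given: Adm was at least 1.74-fold lower in the mean, at least 1.36-fold on replicate 1 and at least 2.23-fold on replicate 2. The bound divides the control's value by the lowest level detected on each transgenic array. The measured log2 difference was -2.17, with a limma adjusted p of 0.351, and with normexp correction it shrank to -0.096. The value rests on 1 dim probe.

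The 3 genes of the adrenomedullin system were set beside 10 further genes of the adrenomedullin and CGRP system, of which 5 were tested. None was at least 2-fold higher on both. Of the other 2 receptor activity-modifying proteins, Ramp1 lay below the control on both arrays, by little on replicate 2, and Ramp3 lay above it on replicate 1 and below it on replicate 2. Ramp1 had a log2 difference of -1.60 (replicate 1) and -0.02 (replicate 2), and Ramp3 had 0.80 and -0.88. Pam, the enzyme that amidates peptides such as adrenomedullin, was at 0.15 and 0.07.

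S1pr1, the main endothelial receptor for sphingosine-1-phosphate, was higher on both transgenic arrays. Its scaled signal was 17.7% on the control array, 74.2% on replicate 1 and 32.4% on replicate 2. It was 2.77-fold higher in the mean, 4.19-fold on replicate 1 and 1.83-fold on replicate 2, so replicate 2 stayed under 2-fold. The log2 difference was 1.47 ± 0.61 (SE), with a limma adjusted p of 0.542.

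S1pr2, the other sphingosine-1-phosphate receptor among the 10, lay on the opposite side. Its scaled signal was 9.82% on the control array, 2.97% on replicate 1 and 5.82% on replicate 2. It was 2.36-fold lower in the mean, 3.31-fold on replicate 1 and 1.69-fold on replicate 2, a log2 difference of -1.24 ± 0.53 (SE) with a limma adjusted p of 0.558. With normexp correction the difference shrank to -0.62. The order of the 3 arrays was thus reversed between these receptors: replicate 1 was highest for S1pr1 and lowest for S1pr2, with replicate 2 between it and the control in both cases.

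Of the 12 other genes of sphingosine-1-phosphate signalling, 10 were tested, with a median log2 difference of -0.66 against 0.067 over all genes. By measured values 2 were at least 2-fold higher in both arrays and 4 lower, where 3.92% and 6.64% of all genes were. S1pr4 among the higher and Ppap2b among the lower entered the test only through the group in which they were detected. Nothing is read from their place in these counts. S1pr4, the receptor known from blood cells, was not well above background on the control array at 11.7 intensity units and read 45.9 and 79.2 on the transgenic arrays, at least 5.71-fold higher. Spns2, which exports sphingosine-1-phosphate from endothelium, was 3.78-fold higher, at 4605, 12657 and 13935 intensity units on the control, replicate 1 and replicate 2 arrays. Sgpl1, the lyase that degrades it, was 5.26-fold lower, with 7.81-fold for replicate 1 and 3.55-fold for replicate 2. Ppap2a and Ppap2b, which encode lipid phosphatases now named Plpp1 and Plpp3, were both lower. Ppap2a was 3.89-fold lower on replicate 2 and at least 37.3-fold on replicate 1, where it was not well above background, and Ppap2b, detected on the control array only, was at least 2.43-fold lower. Apom, the plasma carrier protein of the lipid, was lower by 16.7-fold (replicate 1) and 2.29-fold (replicate 2), and it is also one of the visceral endoderm markers described below. S1pr3, detected on all 3 arrays, was at 0.65 and 0.61 on the log2 scale, and S1pr5 was not tested.

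Aplnr and Apln could not be compared. The Apln spot read 6.82 ± 3.08 intensity units on the control array, 5.21 ± 2.35 on replicate 1 and 3.52 ± 2.43 on replicate 2, none of them well above background. The Aplnr spot read 8.66 ± 3.02 on the control array, 5.09 ± 2.31 on replicate 1 and 13.3 ± 2.71 on replicate 2, and only the last was well above background. On replicate 2 Aplnr lay just above the lowest signal detected on that array, 11.2 intensity units, so neither gene has a fold change here. Of 10 further peptide receptor genes and ligands, among them Apela, the second ligand of Aplnr, 2 were tested, Vipr1 and Vipr2, and neither was 2-fold apart from the control in both arrays.

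Eltd1, an adhesion-class receptor of endothelium, was higher on both arrays with the smallest gap between replicates among the 5 higher genes. Its scaled signal was 2.46% on the control array, 11.9% on replicate 1 and 6.36% on replicate 2. It was 3.54-fold higher in the mean, 4.85-fold on replicate 1 and 2.59-fold on replicate 2. The log2 difference was 1.82 ± 0.51 (SE), with an unadjusted p of 0.0238 and an adjusted p of 0.364 in limma. With normexp correction it was 1.18 and did not pass either.

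Gpr116, the other adhesion-class receptor, depended on 1 array. Its scaled signal was 1.09% on the control array, 4.32% on replicate 1 and 1.15% on replicate 2. Replicate 1 was 3.98-fold above the control, while replicate 2 was 1.06-fold above it. That second gap is smaller than the error of the control spot, which read 22.5 ± 3.8 intensity units. The mean log2 difference of 1.03 ± 0.89 (SE) had a limma adjusted p of 0.850 and became 0.078 without replicate 1.

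Among 20 other adhesion-class receptors, 8 were tested, and 1 was at least 2-fold higher and 1 lower in both arrays. Gpr56 (now Adgrg1), which is also known from blood stem and progenitor cells, was 2.37-fold higher (2.53-fold and 2.23-fold), at 4882, 7138 and 10984 intensity units. Cd97 (now Adgre5), a receptor of leukocytes, was 2.66-fold lower (3.04-fold and 2.32-fold). Gpr124 (now Adgra2), which acts in brain vessels, differed in log2 by 1.03 (replicate 1) and 0.25 (replicate 2).

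Ednrb was lower on both arrays, with the smallest gap between replicates of the 8 tested genes, and with 2 probes that gave like values. The probe used for the gene had a scaled signal of 39.1% on the control array, 12.4% on replicate 1 and 10.6% on replicate 2, and the other probe had 34.4%, 8.13% and 9.02%. Their sequences, given earlier, come from separate stretches. In both, the transgenic arrays lay close together and well below the control. The first was 3.41-fold lower in the mean (3.15-fold on replicate 1, 3.70-fold on replicate 2), a log2 difference of -1.77 ± 0.33 (SE) with an unadjusted p of 0.00647 and an adjusted p of 0.260 in limma. The second was 4.01-fold lower (4.23-fold and 3.81-fold), at -2.01 ± 0.33 (SE) with an unadjusted p of 0.00375 and an adjusted p of 0.238 in limma. Over the processing alternatives the log2 difference of Ednrb ran from -2.02 to -1.46, with limma adjusted p from 0.0506 to 0.399.

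Of 8 further endothelin genes 2 were tested. Edn1, the ligand made by endothelium, was detected on the control array only (29.9 intensity units, against 3.95 and 10.2) and was at least 2.10-fold lower. It entered the test only through that array, so it had to read lower. Ece1, the enzyme that matures it, differed in log2 by 0.78 (replicate 1) and 0.08 (replicate 2), while Ednra, Edn2 and Edn3 were not tested.

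**Figure D2:**
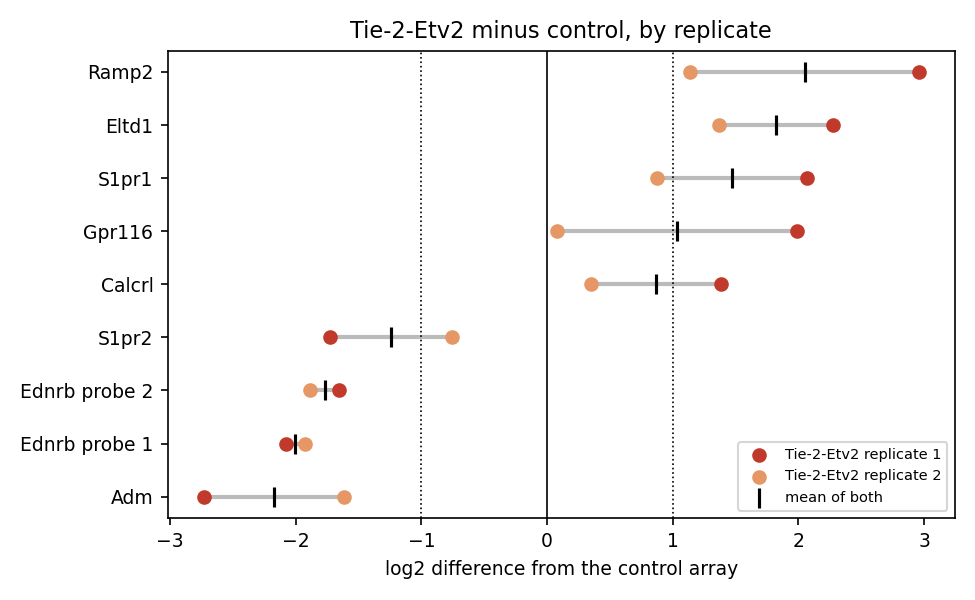
Log2 difference of each transgenic array from the control array for the 9 tested probes of 8 genes; the tick is the mean of both and dotted lines mark 2-fold. Ramp2 and Eltd1 lie beyond the line on both arrays, Gpr116 spans 0.08 to 1.99, and the 2 points of each Ednrb probe nearly coincide (probe 2 is the one used for the gene).

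The 2 transgenic arrays gave different sizes for most of these genes. Replicate 1 lay further from the control than replicate 2 for 7 of the 8, Ednrb being the exception with the probe used. On replicate 1 alone 8 of the 8, by measured values, were at least 2-fold apart from the control, where 20.3% of all genes were. On replicate 2 alone 4 of the 8 were, where 12.9% of all genes were. Adm is in all these counts, though its side was set by the filter and its bound on replicate 1 is only 1.36-fold. Nothing is read from its place in them. The median log2 difference over the 8 was 0.95, against 0.067 over all genes. It was 1.69 on replicate 1 (without replicate 2) and 0.21 on replicate 2 (without replicate 1). Without Adm, over the 7 genes detected on all 3 arrays, the median of both replicates was 1.03, against 0.0955 over all genes so detected. Without replicate 2, 5 of the 8 counted as at least 2-fold higher instead of 2. Over all 19583 genes the count rose as well, to 1775 from 768.

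Markers of other cells differed between the arrays as well. Of 17 endothelial markers, which do not include the 10 genes, 16 were tested, 11 were at least 2-fold higher on both transgenic arrays and 0 lower. Over all genes 3.92% were higher and 6.64% lower. Sox17 and Sox18 among the 11 were not detected on the control array. They entered the test only through the transgenic arrays and had to read higher, so nothing is read from their place in these counts. The summed scaled signal of the 16 was 1328% on the control array, 5602% on replicate 1 and 2892% on replicate 2. Egfl7, which vessels secrete, had log2 differences of 2.33 and 1.36, Kdr, the VEGF receptor, 0.86 and 0.14, and Icam2, an adhesion protein, 0.08 and 0.28, while Sox7 was not tested. The 12 macrophage markers were all at least 2-fold lower by measured values and summed to 7902%, 502% and 1755% in the same order. Among them Csf1r, the receptor that macrophages depend on, still read 4681 intensity units on replicate 1 and 21737 on replicate 2, against 64980 on the control array. The 11 visceral endoderm markers summed to 3607%, 192% and 1537%, with 10 lower, and Afp among them read 43628, 1505 and 18488 intensity units. The 10 tested mesenchyme markers summed to 154%, 24.4% and 17.4%, with 6 lower and Pdgfra not tested. Erythroid markers summed to 4342%, 831% and 1205% (6 of 8 lower), granulocyte markers to 2804%, 6206% and 6401% (5 of 10 higher), and megakaryocyte markers to 875%, 1266% and 955% (4 of 9 higher, 2 lower). The filter likewise set the side of Ltf among the higher granulocyte markers. It also set that of Timd4 among the lower macrophage markers and of Dcn and Lum among the lower mesenchyme markers. Bright probes weigh most in these sums, whose order need not be that of each marker. Egfl7, the brightest endothelial marker, read 17233, 50180 and 44693 intensity units (control, replicate 1, replicate 2). Replicate 1 lay further from the control than replicate 2 for 15 of the 16 endothelial markers. On replicate 2, Cldn5 and Emcn lay below the control (log2 -0.34 and -0.29). Pf4, the brightest megakaryocyte marker on the control array, fell (12771, 2003 and 4139), while Clec1b rose. The endothelial sum ran replicate 1 above replicate 2 above the control. This order was also that of the megakaryocyte sum and of Ramp2, Calcrl, S1pr1, Gpr116 and Eltd1. The order in the macrophage, visceral endoderm and erythroid sums, with replicate 1 lowest, was that of S1pr2 and of the other Ednrb probe (34.4%, 8.13% and 9.02%). The order in the mesenchyme sum, with replicate 2 lowest, was that of the Ednrb probe used (39.1%, 12.4% and 10.6%). The place of Ednrb in this ordering thus depended on the probe. The part of these cells in the results was not tested, and in sorted bulk RNA fewer cells of a type and less RNA per cell cannot be told apart.

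Further vascular receptors lay on both sides of the control. Of 20 tested, 5 were at least 2-fold higher in both arrays and 4 lower, with a median log2 difference of 0.25. Tbxa2r, the thromboxane receptor of platelets and vessels, was 7.06-fold higher, with 10.3-fold for replicate 1 and 4.85-fold for replicate 2. F2r and F2rl3, the thrombin receptors PAR1 and PAR4, were 3.34-fold and 2.65-fold higher, Ptger2, a prostaglandin E2 receptor, 2.39-fold, and the orphan receptor Gprc5b 6.18-fold, with 15.8-fold on replicate 1 and 2.42-fold on replicate 2. The lower genes included Adora2b, an adenosine receptor, Adrb1, an adrenergic receptor, and Cxcr4, the receptor of Cxcl12. Adrb1 was at least 2.06-fold lower, but it was detected on the control array only and so had to read lower. Adora2b and Cxcr4 were detected on the control array and replicate 2, with log2 differences on replicate 2 of -1.92 for Adora2b and -2.11 for Cxcr4.

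Most of the G proteins and their regulators, through which these receptors act, were close to the control: 28 of 31 tested genes were not 2-fold apart in both arrays, with a median log2 difference of -0.08. Gnas, which encodes the stimulatory alpha subunit used by Calcrl, was at -0.01 on replicate 1 and -0.03 on replicate 2, and Gnai2, an inhibitory alpha subunit used by S1pr1, at -0.01 and -0.11. Gna12 and Gna13, alpha subunits used by S1pr2, were at -1.05 and 0.41, and at -0.57 and -0.38. Gng11, a gamma subunit, was the 1 higher gene, 5.85-fold (9.26-fold and 3.70-fold), and Rgs10, a regulator that ends G protein signals, was 2.46-fold lower (2.53-fold and 2.39-fold). Adrbk2, now Grk3, a kinase that turns off receptors, was at least 1.46-fold lower. Over all 78 tested genes of these lists, 9 were at least 2-fold higher on both arrays by measured values, against 3.92% of all genes. Another 13 were lower, against 6.64%, and 56 neither. Among the lower genes, Ppap2b, Edn1, Adrb1 and Adrbk2 were detected on the control array only, so the filter set their side. S1pr4, detected on the transgenic arrays only, likewise had to read higher. Nothing is read from the place of these genes in the counts. Of the 9 higher genes 8 were detected on all 3 arrays, and of the 13 lower genes 5 were. Over all 17228 genes detected on all 3 arrays, 502 were higher and 593 lower. None of the 78 passed the limma test at an adjusted p of 0.05, and 20 had an unadjusted p under 0.05, against 10.8% of all genes. The lists hold 44 more genes that were not tested.

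**Figure D3:**
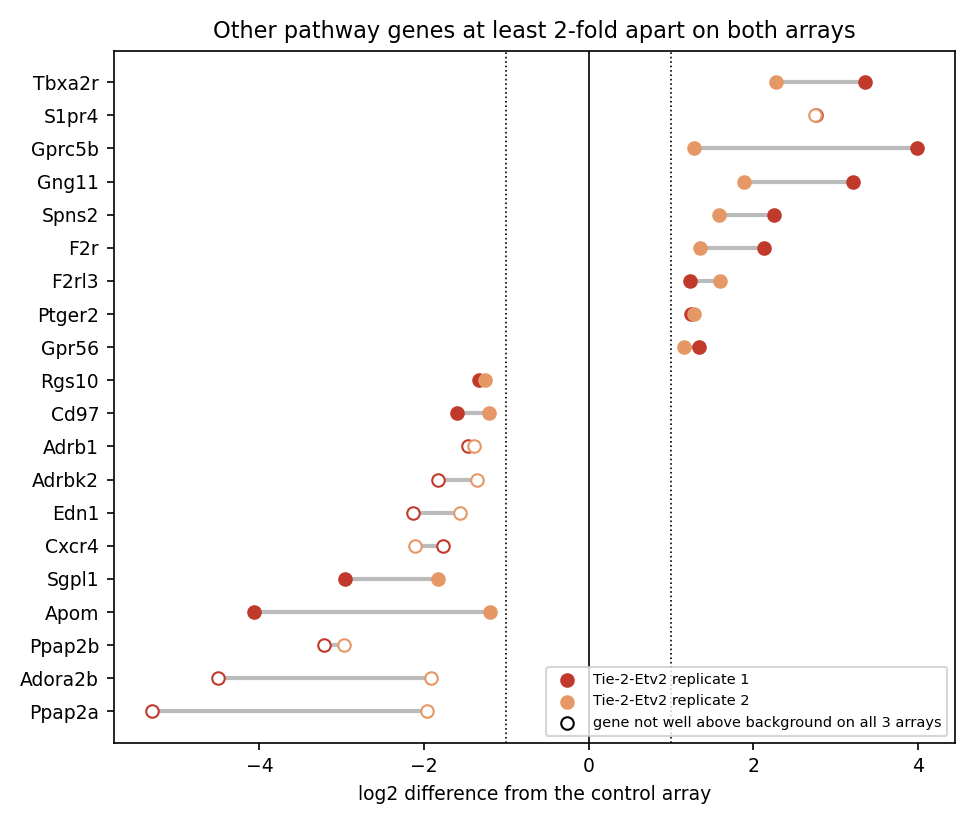
Log2 difference of each transgenic array from the control for 20 other pathway genes at least 2-fold apart in the same direction on both arrays, by measured values; open points mark the 8 genes not detected on all 3 arrays. Receptors and signal genes lie on both sides, from Ppap2a at -5.31 and -1.96 to Tbxa2r at 3.36 and 2.28.

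**Figure D4:**
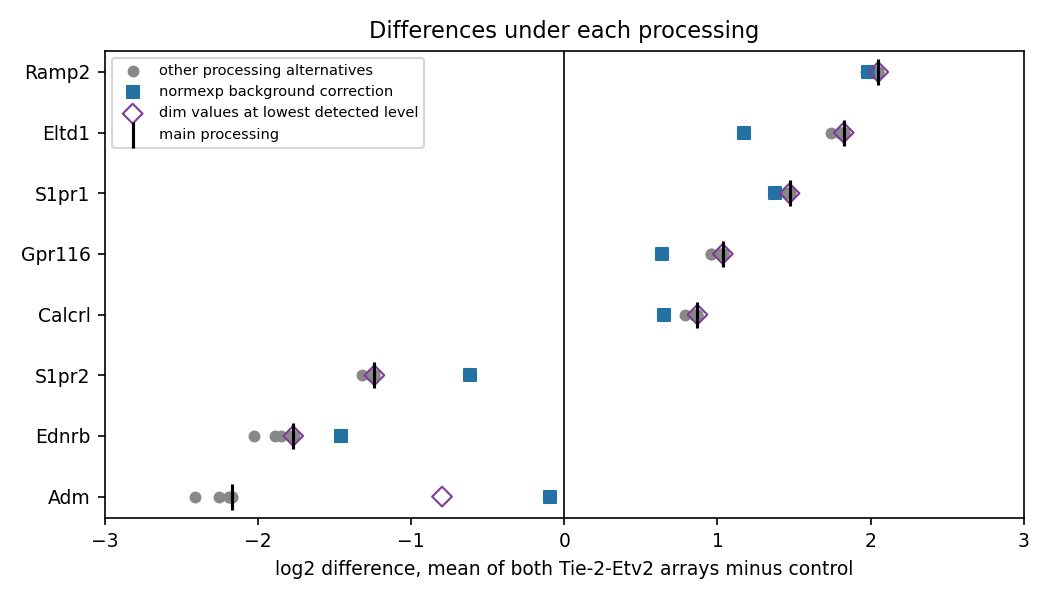
Log2 difference (mean of both transgenic arrays minus control) of the 8 tested genes under the main processing and each processing alternative run with both replicates. Ramp2 was at 1.98 and S1pr1 at 1.38 with normexp correction, while Adm moves from -2.17 to -0.80 with dim values at the lowest detected level and to -0.096 with normexp correction.

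Each of the 8 genes had the same direction under the alternatives run for it, 10 for Adm, which has no value with probes detected on all 3 arrays, and 11 for each other gene. Without replicate 1 the log2 differences were smaller for Ramp2 (1.14), S1pr1 (0.87), Calcrl (0.35) and Gpr116 (0.078) than with any processing alternative on both replicates. Among the latter, the values nearest to 0 came, except for Ramp2 (1.97 with spike-in scaling, 1.98 with normexp), from normexp correction, which adds 50 intensity units to every spot before the logarithm and so shrinks the differences of dim probes: Calcrl was at 0.65, Gpr116 at 0.64, Eltd1 at 1.18 and S1pr1 at 1.38, against 0.87, 1.03, 1.82 and 1.47 in the main processing. With it, 1 gene of the 8 tested (Ramp2) stayed at least 2-fold higher in both arrays and 1 (Ednrb) at least 2-fold lower. Of all 19583 genes, 312 were then higher and 491 lower.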

How the data were processed

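Cy3-labelled RNA of each sample was measured on 1-colour Agilent arrays (design 028005) of 1 slide. Per the file headers, the authors extracted spot intensity with Agilent Feature Extraction 10.7.3.1 (10.7 in the submitters' processing notes), which subtracts background, removes spatial trends and replaces very dim values by surrogates, and does not scale arrays to each other. A log2 table deposited by the authors states neither scale nor centring. Array differences in it equalled those of the log2 processed signal up to 1 constant per array (0.756 and -0.0161) within 0.01 for 100% of 55668 probes, each row being centred on the median of its 3 values; the column medians were 0, 0.136 and 0. It served as an alternative.

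Control spots and outlier spots (168 to 174 per array) were left out. Log2 processed signals were averaged per probe and scaled by the 75th percentile over 22764 probes detected (well above background) on all 3, since under 50% of probes were detected on each. Probes were tested where detected on the control array or on both of the Tie-2-Etv2 group (26217 probes, 19583 genes) with limma 3.58.1 (lmFit, eBayes; R 4.3.3), two-sided, Benjamini-Hochberg adjusted, at a threshold of 0.05. A gene took the tested probe whose average of the control and Tie-2-Etv2 means was highest. Names were updated through RefSeq (GRCm38.p6): accessions matched 26582 probes, symbols 2602 and synonyms 492, and 26005 kept the file's name. The fit was tested on simulated data. The alternatives were normexp, other scalings (all probes, quantile, spike-in probes), other filters, a floor for dim values, the authors' table, the mean over probes and leaving out each Tie-2-Etv2 array.

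The 10 genes, the gene lists and tests were chosen with earlier results of these data known. All 10 were named; of the pathway lists, genes detected on all 3 arrays and at least 2-fold apart in both were named by rule, of each marker list up to 3 with the highest level, and other list genes were chosen after their values were seen. Of those that the rule takes or that are 2-fold apart, some are not reported here.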

Additional observations from a re-analysis of the deposited data

Results flagged for a closer look

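Aplnr was left out of the test, because it was detected on 1 of the 2 Tie-2-Etv2 arrays and not on the control array. Its spot on replicate 2 read 13.3 ± 2.71 intensity units, above the 8.66 ± 3.02 of the control array, which was not well above background. This was a signal in data that no comparison used. It came from 1 spot on 1 array, and whether it repeats was not tested.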

How the results depend on the processing

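Of all genes, 0 passed limma's adjusted test in the main processing, where 2110 had an unadjusted p under 0.05. With normexp correction 614 passed, and 312 genes were at least 2-fold higher and 491 lower in both arrays. Of the 8 tested vascular genes, 1 was then higher and 1 lower. With no filter on dim probes 440 passed and 1317 were 2-fold higher. Limma's prior degrees of freedom were 2.93 in the main processing, infinite with normexp and 20.1 with no filter, and the cause was not tested. With infinite prior degrees of freedom every gene, Ramp2 among them, was tested on a variance common to all probes and not on its own spread. With probes detected on all 3 arrays, which leaves fewer genes, 502 were higher and 593 lower, and 1 vascular gene was lower. With dim values at the lowest detected level 1 vascular gene was lower, as Adm no longer counted. Leaving out 1 Tie-2-Etv2 array at a time gave 896 to 1775 genes 2-fold higher, 1634 to 2204 lower, 2 to 5 vascular genes higher, 2 to 3 lower and a median over them of 0.21 to 1.69. These are values with no test. No paired analysis was possible because the control group holds 1 sample. Of the vascular genes, Ramp2 alone passed, under normexp alone among the alternatives tested. Signal over background limits Adm, Aplnr and Apln.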
